A study of Arabidopsis thaliana with 12 samples.

Results

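The transcripts described here are those of the mitochondrial genome of Arabidopsis thaliana. Members were taken as every row of the mRNA-Seq table whose identifier begins with ATMG, which gave 152 of 38640 rows, the 92 ERCC spike-in transcripts left aside. RNA was measured in 3 groups with 2 biological replicates each. Each replicate was a separate collection of tissue pooled from plants of 4 to 6 weeks. The buds of Col-0 were picked from the plants that gave the leaves, but it is not stated that libraries with the same replicate number share plants. The groups were unopened floral buds of dcl234, rosette and cauline leaves of Col-0, and unopened floral buds of Col-0. The dcl234 plants are homozygous for mutations in 3 Dicer-like genes (dcl2-1, dcl3-1 and dcl4-2t) in the Col-0 background, and the Col-0 plants are wild type. Each mutant gene is represented by 1 allele in 1 line. Levels are given in TPM, a transcript's share of the library after correction for length, scaled to the same total in each library. This corrects for length only, so the order of rows by TPM need not be the order of their RNA levels.

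Plant mitochondria keep a small genome that encodes some subunits of the respiratory chain complexes, the ATP synthase, proteins for cytochrome c maturation, some ribosomal proteins and ribosomal RNAs. Nuclear genes encode the other subunits. Stable mitochondrial mRNAs of plants mostly lack a long poly(A) tail, and in plant mitochondria polyadenylation marks RNA for decay. These libraries were made from 10 ng of total RNA by a method that primes on poly(A), so a TPM here reports polyadenylated or internally primed mitochondrial RNA and not the whole mitochondrial RNA pool. In Arabidopsis, a large copy of the mitochondrial genome also lies in chromosome 2 of the nucleus, and its gene models are quantified in the same table.

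That copy is shown first because many members have a second row in the table through it. Notes in the reference annotation (TAIR10.1, from RefSeq) link 53 of the 152 members to 55 nuclear gene models, all but 1 of them between positions 3239693 and 3503476 of chromosome 2. Of the 50-base windows in this stretch, 252908 of 263735 (95.9%) occur unchanged in the mitochondrial genome of the same reference, and 50 bases is the length of 1 read of a pair. Each of the 55 nuclear models was covered over its full length by alignments of at least 95% identity to that genome, and in 27 of them every 50-base window was also present there. The exception outside the stretch was AT2G18323, noted as a pseudogene of ATMG00450. The coding starts of a pair of nuclear models and an internal coding stretch of another are printed to show how little there is to tell the copies apart. Letters in capitals are bases of the nuclear model that differ from the mitochondrial genome, and the lines without capitals have none.
AT2G07671: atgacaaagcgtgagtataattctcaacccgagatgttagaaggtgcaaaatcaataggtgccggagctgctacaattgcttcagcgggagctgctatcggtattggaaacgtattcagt
AT2G07751: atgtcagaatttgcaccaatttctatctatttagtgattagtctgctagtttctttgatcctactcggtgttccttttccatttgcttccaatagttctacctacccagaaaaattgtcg
AT2G07698: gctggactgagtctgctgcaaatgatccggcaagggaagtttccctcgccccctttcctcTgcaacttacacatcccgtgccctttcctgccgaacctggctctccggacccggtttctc
AT2G07671 (chr2:3251994-3252113, minus strand) is the nuclear counterpart of ATMG01080, mitochondrial F0-ATPase subunit 9, and AT2G07751 (chr2:3270008-3270127, plus strand) that of ATMG00990, NADH dehydrogenase 3. AT2G07698 (chr2:3361868-3361987, plus strand) is that of ATMG01190, ATP synthase subunit 1, and differed by 1 base of the 120 shown. The alignment behind the TPM used TAIR10, whose mitochondrial sequence is not the one compared here, so these shares describe the reference and not the alignment itself.

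The 152 members together held a small part of each library, and it was smallest in leaves. Their summed level was 12445 and 11637 TPM in dcl234 buds, 6091 and 6428 TPM in Col-0 leaves, and 17984 and 17288 TPM in Col-0 buds. This corresponds to 1.24% and 1.16% of all TPM in dcl234 buds, 0.609% and 0.643% in Col-0 leaves, and 1.80% and 1.73% in Col-0 buds. The groups did not overlap. The mean of Col-0 leaves was 0.355 times that of Col-0 buds, at 6260 ± 239 TPM against 17636 ± 492 TPM (SD, n = 2 each). An exact two-sided permutation test of 2 against 2 libraries gave p = 0.33 for this difference, the smallest p that it can give. In bulk tissue, a smaller share of cells rich in mitochondrial RNA and less such RNA per cell cannot be told apart. Nor can either be told apart from a smaller polyadenylated or internally primed part of that RNA.

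**Figure D1:**
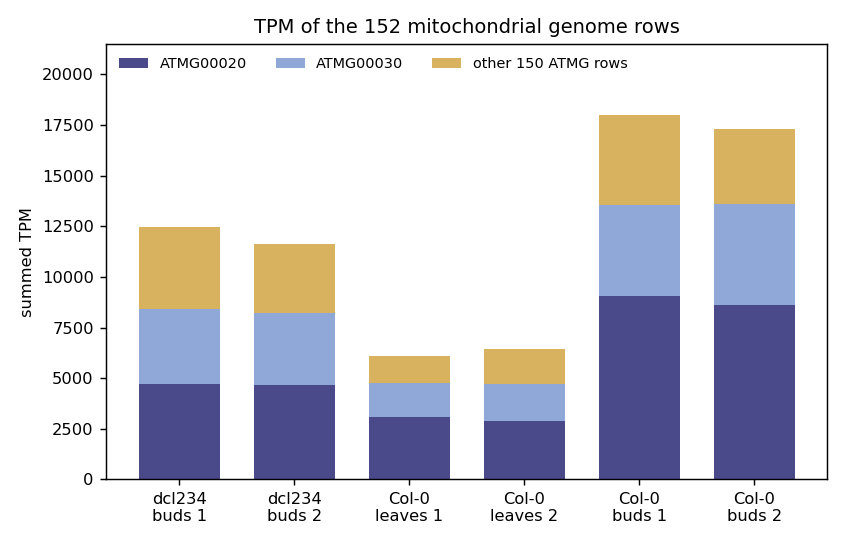
Summed TPM of the 152 mitochondrial rows in each of the 6 libraries (bars), split into ATMG00020, ATMG00030 and the other 150 rows. The bars of both Col-0 leaf libraries stay near 6091 to 6428 TPM, below the 4 bud libraries, and ATMG00020 and ATMG00030 make up most of every bar.

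In dcl234 buds the mean sum was 12041 ± 571 TPM, 0.683 times the 17636 ± 492 TPM of Col-0 buds (SD, n = 2 each), without overlap (exact permutation p = 0.33, the smallest possible). Without ATMG00020 and ATMG00030 the ratio was 0.914, and the groups overlapped. The other 150 rows summed to 4026 and 3420 TPM in dcl234 buds and to 4453 and 3695 TPM in Col-0 buds. When each library was divided by its ERCC total, the ratio for all 152 rows was 3.02, the opposite direction. That of Col-0 leaves to Col-0 buds remained below 1 with this scaling, at 0.612. The ERCC spike-ins summed to 1507 and 655 TPM in dcl234 buds, 3629 and 1792 TPM in Col-0 leaves, and 4748 and 3585 TPM in Col-0 buds, so this scaling differs between replicates of 1 group as well. The chloroplast rows (ATCG, 133 in the table) moved otherwise between tissues. They held 31.8 and 36.4 times the mitochondrial TPM in Col-0 leaves, against 8.89 and 5.88 times in Col-0 buds. In dcl234 buds they held 7.32 and 6.81 times, within the range of the Col-0 buds.

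The level was concentrated in very few rows. ATMG00020 and ATMG00030 alone held 67.6% and 70.6% of the mitochondrial TPM in dcl234 buds, 78.5% and 73.4% in Col-0 leaves, and 75.2% and 78.6% in Col-0 buds. The 10 rows with the highest mean held between 85.7% and 93.0% of it in the 6 libraries. Only 9 rows had a mean of at least 100 TPM, 62 rows were above 0 in all 6 libraries, and 19 were listed at 0 in all of them. Rows listed above 0 numbered 115 and 112 in dcl234 buds, 80 and 96 in Col-0 leaves, and 101 and 102 in Col-0 buds. Replicates did not always list the same rows: 17 rows of dcl234 buds, 36 rows of Col-0 leaves and 29 rows of Col-0 buds were above 0 in 1 replicate and at 0 in the other. An exact 0 in this table is therefore given only as listed. By the paper's read numbers, both Col-0 leaf libraries had fewer genome-matching reads than every bud library. The part of depth in the rows listed at 0 was not tested.

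ATMG00020 was the highest row in every library. It had 4727 and 4665 TPM in dcl234 buds, 3063 and 2894 TPM in leaves of Col-0, and 9041 and 8628 TPM in Col-0 buds. ATMG00030 had 3692 and 3552 TPM in dcl234 buds, 1719 and 1827 TPM in Col-0 leaves, and 4490 and 4965 TPM in Col-0 buds. For both rows the 3 groups did not overlap, with Col-0 buds highest and leaves lowest. Neither identifier is paired with a gene name in the sources used here, and the same holds for ATMG01390, ATMG01380, ATMG01360, ATMG00930, ATMG01120, ATMG00513 and ATMG00090, the other unnamed rows among the 10 highest. A list of mitochondrial ribosomal RNAs made for this work holds ATMG00020, ATMG01390 and ATMG01380, without a note behind it. ATMG01390 had 439 and 326 TPM in dcl234 buds, 122 and 219 TPM in Col-0 leaves, and 1031 and 629 TPM in Col-0 buds. ATMG01380 had a different order, with 473 and 478 TPM in dcl234 buds, 56.1 and 60.1 TPM in Col-0 leaves, and 196 and 278 TPM in Col-0 buds. Relative to Col-0 buds, dcl234 buds were thus lower in ATMG01390 and higher in ATMG01380 in both replicates, but neither passed the test described next (limma adjusted p = 0.20 and 0.18).

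**Figure D2:**
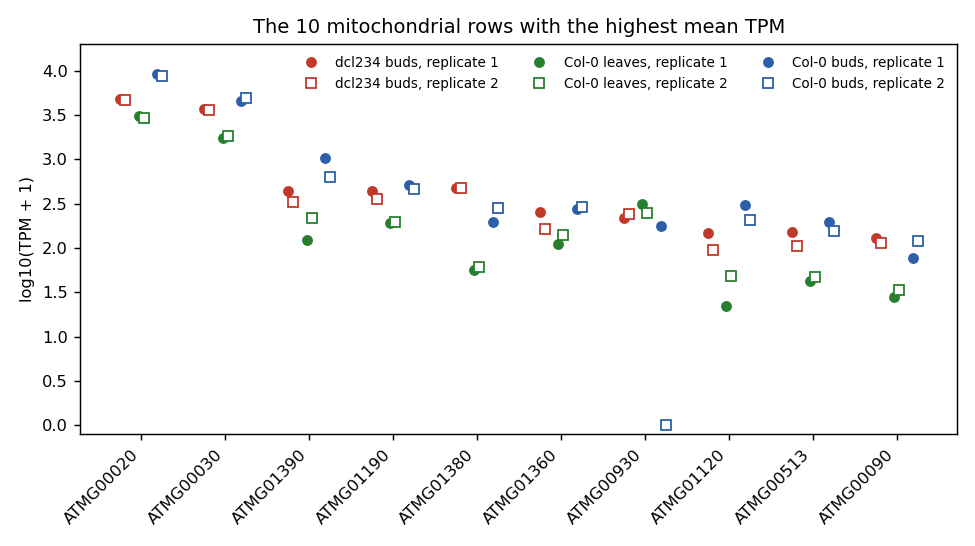
Level of the 10 mitochondrial rows with the highest mean TPM in each library, as log10(TPM + 1), with circles for replicate 1 and squares for replicate 2 of each group. ATMG01380 is highest in dcl234 buds, at 473 and 478 TPM, and ATMG00930 is listed at 0 in replicate 2 of Col-0 buds only.

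Single rows were compared between groups with limma on log2(TPM + 1), for genes that averaged 1 TPM or more over the 6 libraries. A row was called where its Benjamini-Hochberg adjusted p lay below 0.05. The filter left 88 of the 152 members, so the counts that follow do not cover the 64 weaker rows. It also favours rows that are high in at least 1 group. Both comparisons share the Col-0 bud libraries.

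Between leaves and buds of Col-0 the mitochondrial rows fell broadly. In Col-0 leaves, 46 of the 88 rows tested were lower than in Col-0 buds (52.3%) and 1 was higher (1.14%), while over all 19778 genes tested 24.9% were lower and 12.0% higher. The median log2 fold change of the 88 rows was -1.25, beside -0.31 for all genes, and 66 of the 88 lay below that median of all genes. When each library was scaled to the same ERCC total, 3 rows were lower and 2 higher, and the median of all genes was then 0.19. When each was scaled to the same mitochondrial total, 10 were lower and 14 higher. Without replicate 1 or 2 of Col-0 buds, 30 and 29 rows were called.

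The called rows included abundant and weak ones. ATMG01120, at 21.3 and 47.5 TPM in Col-0 leaves against 307 and 204 TPM in Col-0 buds, had a log2 fold change of -2.93 ± 0.44 (SE, limma adjusted p = 0.00013). ATMG01130, at 9.78 and 20.7 TPM in Col-0 leaves against 122 and 106 TPM in Col-0 buds, fell by a similar amount (log2 fold change -2.91 ± 0.40, limma adjusted p = 6e-05). ATMG00500, noted as an unknown protein, had 4.08 and 4.14 TPM in Col-0 leaves against 33.4 and 33.5 TPM in Col-0 buds. The highest rows also passed: the log2 fold change was -1.57 ± 0.38 for ATMG00020 (limma adjusted p = 0.0055) and -1.41 ± 0.38 for ATMG00030 (limma adjusted p = 0.010). ATMG00250 was listed at 0 in both Col-0 leaf libraries, against 17.6 and 27.7 TPM in Col-0 buds (limma adjusted p = 1.8e-06). The nuclear row AT2G07758 carried the same 6 values as ATMG00250. The 1 row called higher was ATMG00930, with 314 and 247 TPM in Col-0 leaves against 176 and 0 TPM in Col-0 buds (limma adjusted p = 0.030). Without replicate 2 of Col-0 buds, where it was listed at 0, its log2 fold change was 0.66 and its limma adjusted p 0.19. The nuclear row AT2G07748 had the same 6 values, including that 0.

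**Figure D3:**
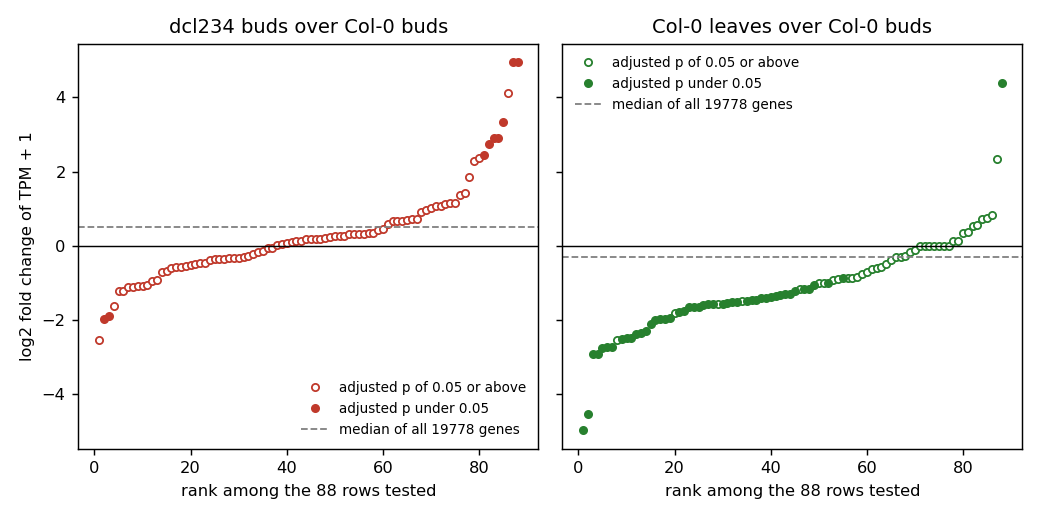
Log2 fold change of TPM + 1 for the 88 mitochondrial rows tested, ranked, in dcl234 buds over Col-0 buds (left) and Col-0 leaves over Col-0 buds (right), with filled points at an adjusted p under 0.05 and a dashed line at the median of all 19778 genes. In the right panel 46 filled points lie below 0 and 1 above, and in the left panel 2 lie below and 7 above.

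Lists of mitochondrial roles made for this work hold 41 of the members, and a note in the reference gives the role of 16 of these, each of which has a nuclear copy. These 16 are called named members here. The notes name 3 further members after subunits of the same complexes, ATMG01280, ATMG01090 and ATMG00590, which the lists do not hold and which were added after their values were seen. Complex I (NADH dehydrogenase) is the entry point of electrons from NADH. Its 3 named members all fell in Col-0 leaves. ATMG01275 (NADH dehydrogenase 1A) had 7.59 and 13.5 TPM in Col-0 leaves against 83.3 and 47.6 TPM in Col-0 buds, and ATMG01320 (NADH dehydrogenase 2B) had 1.08 and 4.26 TPM in Col-0 leaves against 9.96 and 8.72 TPM in Col-0 buds. ATMG00990 (NADH dehydrogenase 3) was listed at 0 in both Col-0 leaf libraries, against 40.9 and 22.7 TPM in Col-0 buds (limma adjusted p = 1.1e-07). In complex III, which passes electrons on to cytochrome c, ATMG00220 (apocytochrome b) had 10.4 and 67.7 TPM in Col-0 leaves against 171 and 121 TPM in Col-0 buds (log2 fold change -2.37 ± 0.66, limma adjusted p = 0.012). The replicates of leaves differed widely for this gene, and both stayed below the Col-0 bud libraries. ATMG00730 (cytochrome c oxidase subunit 3, of complex IV, which reduces oxygen) had 4.07 and 8.19 TPM in Col-0 leaves against 5.31 and 6.59 TPM in Col-0 buds, and the groups overlapped. ATMG01280, noted as cytochrome c oxidase subunit II-like, had 1.89 and 5.51 TPM in Col-0 leaves against 13.2 and 12.0 TPM in Col-0 buds, and was called lower in leaves (log2 fold change -1.65 ± 0.40, limma adjusted p = 0.0052). ATMG00590, noted as a cytochrome b/b6 protein, was listed at 0 in all 6 libraries.

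The ATP synthase (complex V) uses the proton gradient to make ATP, and its 4 named members had the highest summed level among the named roles. They summed to 578 and 492 TPM in dcl234 buds, 226 and 247 TPM in Col-0 leaves, and 593 and 546 TPM in Col-0 buds. Only 3 of the 14 listed members of complex I are named, so this order does not rank the complexes. Of the 4 named ATP synthase members, ATMG01190 (ATP synthase subunit 1) and ATMG00480 (subunit 8) fell in Col-0 leaves. ATMG01190 had 191 and 196 TPM in Col-0 leaves against 516 and 464 TPM in Col-0 buds (log2 fold change -1.33 ± 0.37, limma adjusted p = 0.011). ATMG00410 (ATPase subunit 6-1) had 57.2 and 51.6 TPM in dcl234 buds, 19.2 and 20.5 TPM in Col-0 leaves, and 19.4 and 29.8 TPM in Col-0 buds. It lay above both Col-0 bud libraries in dcl234 buds, but did not pass the test (limma adjusted p = 0.12). ATMG01090, noted as ATP synthase 9 but not among the 4, had 5.28 and 6.41 TPM in dcl234 buds, 5.78 and 4.57 TPM in Col-0 leaves, and 3.53 and 2.82 TPM in Col-0 buds. Its Col-0 bud libraries were the lowest, but neither comparison passed (limma adjusted p = 0.21 for dcl234 buds and 0.17 for Col-0 leaves). Of the 3 named members for cytochrome c maturation, ATMG00180 (cytochrome C biogenesis 452) and ATMG00960 (a cytochrome C assembly protein) fell in Col-0 leaves. ATMG00960 had 7.79 and 19.5 TPM in Col-0 leaves against 79.2 and 57.5 TPM in Col-0 buds.

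The 9 named members of complexes I, III, IV and V held 4.08% to 6.08% of the mitochondrial TPM in the 6 libraries. The share was 6.08% and 5.11% in dcl234 buds, 4.08% and 5.29% in Col-0 leaves, and 5.02% and 4.36% in Col-0 buds. Leaves overlapped with Col-0 buds, whereas dcl234 buds lay above them by 0.90 percentage points in the mean. With ATMG01280, ATMG01090 and ATMG00590 counted in, the share was 6.20% and 5.21% in dcl234 buds, 4.21% and 5.45% in Col-0 leaves, and 5.12% and 4.44% in Col-0 buds. The lists hold 14, 1, 3 and 6 members for complexes I, III, IV and V. Many of these have no note, among them the abundant rows ATMG01360, ATMG01120 and ATMG00513. The share of all listed members was not computed, so the separation of dcl234 buds is given for members with a note only. The shares depend on a few abundant rows in the denominator. ATMG00020, ATMG01390 and ATMG01380 are among the 5 highest rows. They make up the list for mitochondrial ribosomal RNAs, but have no annotation in the sources used here. Without them in the denominator, the mean difference of dcl234 buds was -0.33 percentage points, and the groups overlapped. The shares were then 11.1% and 9.64% in dcl234 buds and 11.7% and 9.71% in Col-0 buds.

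In dcl234 buds few mitochondrial rows differed from Col-0 buds. Of the 88 rows tested, 7 were higher (7.95%) and 2 lower (2.27%), while over all 19778 genes tested 1.34% were higher and 0.48% lower. The median log2 fold change was 0.19 for the 88 rows and 0.50 for all genes. Of the 7 rows called higher, 6 were listed at 0 in both Col-0 bud libraries, so no fold change is given for them. These 6 passed the filter through dcl234 buds, and only ATMG00920 had any Col-0 level, 1.87 TPM in leaves replicate 1. Their p-values and the share called higher therefore depend on the filter and are not separate support for a difference. ATMG00100 and ATMG00700 had the same values as each other, 41.7 and 21.2 TPM in dcl234 buds and 0 in the 4 Col-0 libraries (limma adjusted p = 4e-06). ATMG00350 had 8.96 and 9.08 TPM in dcl234 buds and 0 in the 4 Col-0 libraries, and the nuclear row AT2G07762 carried the same 6 values. ATMG00340 and ATMG00790 shared the values 4.48 and 9.08 TPM in dcl234 buds and 0 in the Col-0 libraries with the nuclear rows AT2G07753 and AT2G07761. Rows with the same values are 1 measurement, so that the 7 higher rows stand for at most 5. ATMG00350, ATMG00340 and ATMG00790 also share the 9.08 TPM of dcl234 buds replicate 2, so the number may be lower.

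The other higher rows were ATMG01080 (mitochondrial F0-ATPase subunit 9, of the ATP synthase) and ATMG00920, which falls outside the rule for naming genes and was picked after its values were seen. ATMG01080 had 5.80 and 24.0 TPM in dcl234 buds against 2.73 and 0 TPM in Col-0 buds (limma adjusted p = 0.029). ATMG00920 had 3.41 and 5.79 TPM in dcl234 buds and was listed at 0 in both Col-0 bud libraries (limma adjusted p = 0.015). Of the 2 lower rows, ATMG00520 had 4.77 and 3.22 TPM in dcl234 buds against 17.5 and 19.1 TPM in Col-0 buds (log2 fold change -1.97 ± 0.31, limma adjusted p = 0.0044). In Col-0 leaves it had 4.99 and 5.95 TPM and was also called lower than in Col-0 buds. ATMG00890 was listed at 0 in both dcl234 bud libraries, against 1.76 and 3.94 TPM in Col-0 buds (limma adjusted p = 0.034). Its mean of 1.06 TPM over the 6 libraries was just above the filter. Dividing by the ERCC total gave 61 higher and 1 lower, and the median log2 fold change of all genes was then 2.30. The count of 9 was 4 without replicate 2 of dcl234 buds, 3 without either replicate of Col-0 buds, and 22 or 20 without replicate 1 or 2 of Col-0 leaves. Leaving out a Col-0 library could not change the difference of ATMG00350, which was listed at 0 in all 4 of them.

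Markers of cell types were compared between the same groups. In dcl234 buds against Col-0 buds, limma called 2 tapetum markers and none of the 5 flower, 3 pollen or 5 leaf markers, with or without a mean-variance trend, while 4 flower, 2 pollen and 1 leaf marker had an unadjusted p under 0.05. Over all genes tested, 1.34% were called higher and 0.48% lower in this comparison. The 5 flower markers summed to 552 and 738 TPM in dcl234 buds, 2.57 and 4.23 TPM in Col-0 leaves, and 271 and 389 TPM in Col-0 buds. The 6 tapetum markers summed to 877 and 1381 TPM in dcl234 buds, 1.96 and 1.25 TPM in Col-0 leaves, and 254 and 393 TPM in Col-0 buds, and the 2 called markers, of 5 tested, were higher in dcl234 buds. The 3 pollen markers summed to 101 and 176 TPM in dcl234 buds, 3.07 and 2.20 TPM in Col-0 leaves, and 267 and 311 TPM in Col-0 buds. The 5 leaf markers summed to between 22784 and 25319 TPM in dcl234 buds, 32240 and 48079 TPM in Col-0 leaves, and 12562 and 14913 TPM in Col-0 buds. All 5 leaf markers were called higher in Col-0 leaves and all 5 flower markers lower, as the labels have it. The part of cell composition and stage in the mitochondrial levels was not tested.

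Which row a level appeared in varied between members and between libraries. Summed over the 53 members with a nuclear copy, the mitochondrial rows held 996 and 815 TPM in dcl234 buds, 333 and 439 TPM in Col-0 leaves, and 1152 and 984 TPM in Col-0 buds. Their 55 nuclear copies held 1238 and 1002 TPM in dcl234 buds, 448 and 495 TPM in Col-0 leaves, and 947 and 1045 TPM in Col-0 buds. Thus about as much was counted in the noted nuclear copies as in their mitochondrial rows. The 180 gene models of the chromosome 2 stretch, noted or not, summed to 2812 and 2180 TPM in dcl234 buds. They summed to 1129 and 1254 TPM in Col-0 leaves and to 2323 and 2337 TPM in Col-0 buds. The nuclear copy had the higher mean TPM for 30 members, the mitochondrial row for 17, and both had the same for 6. Reads of the 2 copies cannot be told apart where the sequences are the same.

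Several members were at or near 0 while their nuclear copy was not. ATMG00210 (ribosomal protein L5) was listed at 0 in all 6 libraries, while AT2G07725 held 96.3 and 65.2 TPM in dcl234 buds, 40.5 and 54.5 TPM in Col-0 leaves, and 126 and 136 TPM in Col-0 buds. ATMG01270 (ribosomal protein S7) was also listed at 0 throughout, while AT2G07696 held 34.4 and 24.2 TPM in dcl234 buds, 6.28 and 9.96 TPM in Col-0 leaves, and 17.7 and 24.9 TPM in Col-0 buds. For ATMG00980 (of the ribosomal protein S12/S23 family) the row changed with the replicate. In dcl234 buds replicate 1 it was listed at 0 and AT2G07675 at 30.2 TPM, and in replicate 2 it was at 25.6 TPM and AT2G07675 at 0. In both Col-0 leaf libraries the 2 rows had equal values, 2.72 and 4.34 TPM. In Col-0 buds replicate 1 the mitochondrial row was listed at 0 and the nuclear row at 19.1 TPM, and in replicate 2 both were at 6.43 TPM. ATMG00480 and AT2G07707 had equal values in all 6 libraries. In all, 18 sets of rows with the same 6 values included mitochondrial rows, and 14 of these sets held a nuclear row.

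**Figure D4:**
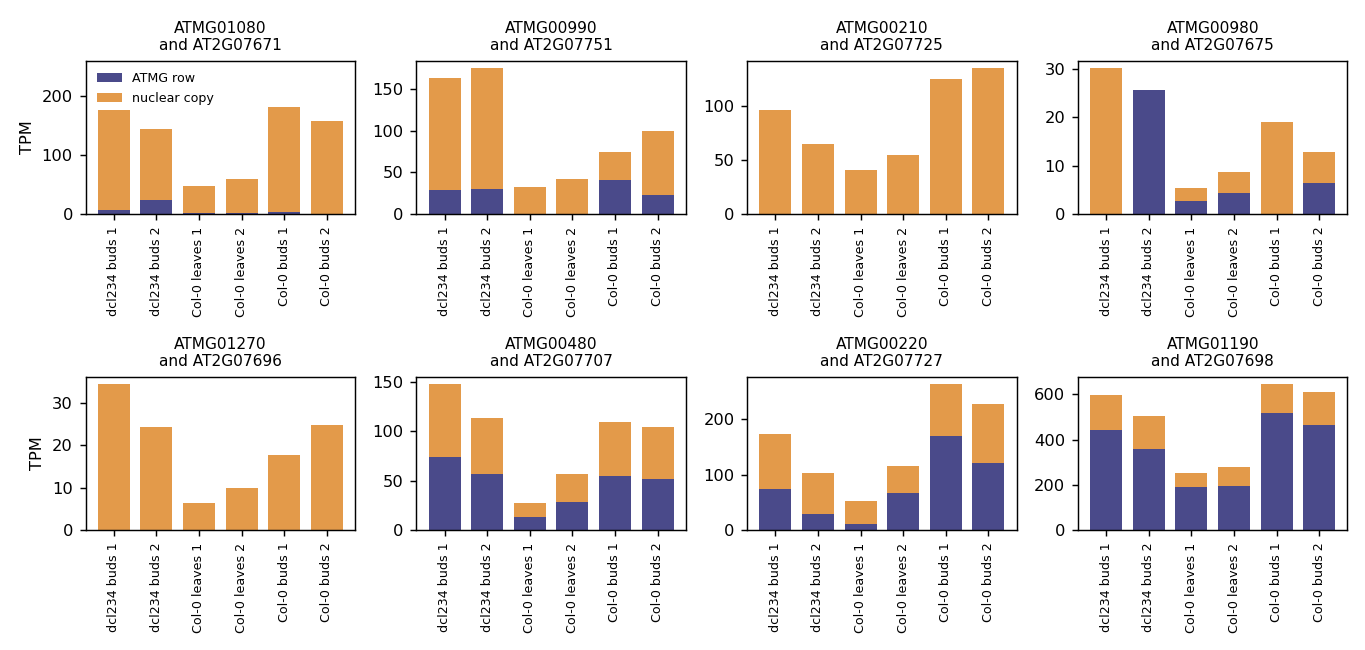
TPM of 8 mitochondrial rows and of their nuclear copy, stacked, in each library, with a separate scale per panel. For ATMG00210 and ATMG01270 the bars are the nuclear copy alone, and for ATMG00980 the 2 replicates of dcl234 buds show 1 row each, at 30.2 and 25.6 TPM.

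Adding the TPM of the nuclear copies to their mitochondrial row, an alternative chosen after seeing the data, removed 2 of the calls in dcl234 buds. ATMG01080 and AT2G07671 together had 176 and 144 TPM in dcl234 buds, 47.9 and 59.1 TPM in Col-0 leaves, and 182 and 157 TPM in Col-0 buds. The log2 fold change of dcl234 buds over Col-0 buds was then -0.087 ± 0.36 (SE, limma adjusted p = 0.85), against 2.76 ± 0.59 for the mitochondrial row alone. ATMG00920 and AT2G07678 together had 30.1 and 32.0 TPM in dcl234 buds against 24.4 and 27.2 TPM in Col-0 buds (limma adjusted p = 0.53). These are the 2 of the 9 called rows that have a noted copy. Nothing was added to the other 7, and no further row was called. Of these 7, ATMG00350, ATMG00340 and ATMG00790 have no noted copy but carried the same values as nuclear rows, so the addition does not clear them. For the 53 members and their copies together, the sum was 2234 and 1817 TPM in dcl234 buds, 781 and 935 TPM in Col-0 leaves, and 2100 and 2030 TPM in Col-0 buds, so dcl234 buds overlapped with Col-0 buds and leaves did not.

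Between leaves and buds, 16 of the 47 called rows have a noted copy, and all 16 were still called with the copies added. Nothing was added to the other 31, although some of them, such as ATMG00250 and ATMG00930, carried the same values as a nuclear row. A further 13 rows were called, so that 59 of 105 rows tested were lower and 1 higher. ATMG00990 and AT2G07751 together had 32.5 and 41.6 TPM in Col-0 leaves against 74.2 and 99.3 TPM in Col-0 buds, a log2 fold change of -1.20 ± 0.36 (SE, limma adjusted p = 0.017), where the mitochondrial row alone was listed at 0 in leaves. In dcl234 buds the same pair had 163 and 175 TPM, above the 74.2 and 99.3 TPM of Col-0 buds, and did not pass (limma adjusted p = 0.18). All 4 named ribosomal protein members were lower in Col-0 leaves with their copies added, whereas of their mitochondrial rows only 2 could be tested and none was called. The list made for this work holds 7 ribosomal protein members, the 4 included. Of the mitochondrial rows of these 7, without copies added, 5 were tested and 3 were called lower in Col-0 leaves.

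Nuclear genes of the respiratory chain were counted beside the mitochondrial rows. Of 26 such genes all were tested, and Col-0 leaves had 1 gene higher and 1 lower than Col-0 buds did, with a median log2 fold change of -0.50 beside -0.31 for all genes. Over all genes, 12.0% were higher and 24.9% lower, and whether the list differs from other genes was not tested. The higher gene was AOX1A, an alternative oxidase that bypasses complexes III and IV, with 24.9 and 20.6 TPM in Col-0 leaves against 7.81 and 7.70 TPM in Col-0 buds (log2 fold change 1.43 ± 0.32, limma adjusted p = 0.0029). The lower gene was CYTC-2, a cytochrome c, with 5.85 and 11.5 TPM in Col-0 leaves against 14.5 and 26.4 TPM in Col-0 buds (limma adjusted p = 0.039). Of 8 nuclear genes for mitochondrial transcription, RNA decay and genome maintenance, 2 were lower in Col-0 leaves, about the share of all genes (24.9%). ATWHY2, a single-stranded DNA-binding protein of mitochondria, had 13.8 and 16.9 TPM in Col-0 leaves against 32.9 and 49.4 TPM in Col-0 buds (limma adjusted p = 0.0081). AT5G14580 had 0.09 and 0.98 TPM in Col-0 leaves against 1.69 and 2.75 TPM in Col-0 buds (limma adjusted p = 0.033). In dcl234 buds limma called 0 of these 34 genes, with or without a mean-variance trend, and 3 of the 26 and 1 of the 8 had an unadjusted p under 0.05. Over all genes, only 1.34% were called higher and 0.48% lower in this comparison. The median log2 fold change of the 26 genes was 0.54, beside 0.50 for all genes. Whether the lists differ from other genes in dcl234 buds was not tested.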

How the data were processed

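RNA of 3 groups with 2 biological replicates each was sequenced as paired-end 50-base reads. With RSEM, the authors mapped the pairs to a reference of TAIR10 plus ERCC transcripts, and they deposited TPM per Araport11 gene model. RSEM divides reads among matching transcripts by estimation, which bears on members with a nuclear copy. The table used here holds no read counts per gene, so no count test was run. The paper does report genome-matching reads per library, which were fewest in the Col-0 leaf libraries. TPM were compared as log2(TPM + 1) with limma 3.58.1 (R 4.3.3, mean-variance trend, all 6 libraries, no covariate) over the 19778 genes that averaged 1 TPM or more, ERCC rows left out, at a Benjamini-Hochberg adjusted p under 0.05. A fold change on this scale understates that of low genes. Sums were compared with exact two-sided permutation tests.

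Gene models of chromosome 2 noted as counterparts of ATMG identifiers were aligned to the mitochondrial genome of TAIR10.1 with blastn 2.17.0 (at least 95% identity over at least 80% of the nuclear model, since the members' own sequences were not used here). Names come only from those notes, and other members are given by identifier. The text names the members of the role lists whose role a note gives, the 10 rows with the highest mean, and per comparison the 5 called rows that rose most and the 5 that fell most. Members and lists were chosen with earlier results of these data known. Alternatives were a pseudocount of 0.1, no filter, a mean of at least 5 TPM, a fit of only 4 libraries, a replicate block, other scalings (ERCC total, nuclear genes, quantiles, ATMG total), no trend, sums with other rows and leaving out each library. Other versions were Python 3.11.15, pandas 2.3.3 and NumPy 2.4.6. Small RNA tables were not used here.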

Additional observations from a re-analysis of the deposited data

How the results depend on the processing

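The lower sum of leaves kept its direction under the alternatives run. Its ratio to Col-0 buds was 0.612 with the ERCC total, 0.387 with nuclear scaling and 0.395 without ATMG00020, ATMG01390 and ATMG01380, and 0.345 to 0.365 leaving out 1 library. The ratio of dcl234 buds to Col-0 buds was 3.02 with the ERCC total, 0.641 with nuclear scaling, 0.839 without those 3 rows and 0.660 to 0.706 leaving out 1 library. Without ATMG00020 and ATMG00030 it was 0.914, and the groups overlapped. With 2 libraries per group and no read counts per gene, a difference of less than about the spread of replicates cannot be seen. A listed 0 has no known limit.

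Called mitochondrial rows in leaves numbered 5 with the ERCC total and 24 with the ATMG total (14 higher, 10 lower), 52 with the replicate block and 29 to 53 leaving out 1 library. In dcl234 buds they numbered 5 with no filter, 16 at a mean of at least 5 TPM, 18 with only the 4 libraries of the contrast, 15 with the replicate block, 62 with the ERCC total, 25 with the ATMG total and 3 to 22 leaving out 1 library. Buds and leaves of Col-0 came from the same plants, but replicate numbers are not stated to pair samples, and deviations of same-numbered libraries correlated at 0.07, 0.22 and -0.05 over the 88 rows. Apart from the scalings, which change the comparison by construction, the cause was not tested.

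The share of the named respiratory members changed by -0.33 percentage points in dcl234 buds and -1.12 in leaves without the 3 rows in the denominator, and by 0.42 to 1.39 and -0.61 to 0.61 leaving out 1 library (0.61 without Col-0 leaves replicate 1 and 0.33 without Col-0 buds replicate 1). With ATMG01090, ATMG01280 and ATMG00590, added after seeing the data, it was 0.052 in leaves. With the ATMG total, the log2 fold change in leaves was 0.081 for ATMG00030, 0.15 for ATMG01190 and 0.32 for ATMG01360. With nuclear copies added it was -0.087 for ATMG01080 in dcl234 buds.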
